A study of Homo sapiens with 8 samples.

Results

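The 10 genes described here encode enzymes that cut the matrix around cells, their inhibitors and a receptor. They are the matrix metalloproteinases MMP1, MMP7, MMP14 and MMP15, the disintegrin metalloproteinase ADAM10, the tissue inhibitors of metalloproteinases TIMP1, TIMP2 and TIMP3, the urokinase gene PLAU and the urokinase receptor gene PLAUR. They were taken by symbol, and all 10 were found among the 25192 gene symbols of the deposited tables. Messenger RNA was sequenced from HT29 and SW480, both human colorectal cancer cell lines with truncated APC, 36 h after transfection. In each line, 2 libraries came from cells given control siRNA (siCon) and 2 from cells given siRNA against PRDX2 (siPrdx2), the gene of the peroxidase PrxII. HT29 cells grew in McCoy's 5A medium and SW480 cells in RPMI1840, both with serum, so cell line and medium cannot be told apart. The labels name neither siRNA sequence, and the files hold no second siRNA against PRDX2, so the loss of PrxII and other effects of the siRNA cannot be told apart.

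Matrix metalloproteinases are zinc enzymes that are made as inactive precursors. MMP1 is a secreted collagenase, MMP7 (matrilysin) is a small secreted enzyme typical of epithelial tumors and a known target of β-catenin and TCF, and MMP14 and MMP15 sit in the cell membrane. TIMP proteins bind the active site of these enzymes, and TIMP2 also bridges MMP14 and the precursor of MMP2 in the step that activates MMP2. Urokinase turns plasminogen into plasmin at the cell surface, where PLAUR holds it, and ADAM10 sheds the outer parts of membrane proteins such as E-cadherin and Notch.

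Promoter sequences from RefSeq (GRCh38.p14) were held for 8 of the 10 genes, in 9 windows because PLAU has 2 start sites. MMP1 and TIMP2 have no entry. The 250 bases before the start site were searched on both strands for the AP-1 motif TGANTCA and for the TCF/LEF motifs CTTTGAA and CTTTGAT. The AP-1 letters were found in 6.57% and the TCF/LEF letters in 5.94% of all 35116 windows of this length. The windows of MMP7 and PLAUR are shown as the 2 that hold a match. The MMP14 window is shown for the member that was higher in siPrdx2 libraries of HT29 cells, and those of TIMP3 and PLAU for the members whose levels differed most between the lines. Each is written 5′ to 3′ on the strand of the gene, ends at the base before the start site and carries its matches in capitals.
MMP7, chr11:102530748-102530997, minus strand: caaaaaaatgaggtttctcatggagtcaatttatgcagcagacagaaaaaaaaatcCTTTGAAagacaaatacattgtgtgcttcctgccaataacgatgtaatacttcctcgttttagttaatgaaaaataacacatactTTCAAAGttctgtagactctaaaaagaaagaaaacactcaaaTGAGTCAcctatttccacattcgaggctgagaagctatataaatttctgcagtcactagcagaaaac
PLAUR, chr19:43670170-43670419, minus strand: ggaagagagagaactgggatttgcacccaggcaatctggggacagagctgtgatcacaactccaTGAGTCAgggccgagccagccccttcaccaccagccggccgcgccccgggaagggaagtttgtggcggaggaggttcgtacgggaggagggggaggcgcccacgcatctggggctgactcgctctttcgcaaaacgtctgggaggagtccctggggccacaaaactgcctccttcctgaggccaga
MMP14, chr14:22836335-22836584, plus strand: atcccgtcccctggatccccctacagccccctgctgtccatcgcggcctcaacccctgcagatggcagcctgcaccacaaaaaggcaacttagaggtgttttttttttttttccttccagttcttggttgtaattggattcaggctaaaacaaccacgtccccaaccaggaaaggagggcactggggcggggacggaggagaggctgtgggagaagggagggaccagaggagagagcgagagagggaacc
TIMP3, chr22:32801455-32801704, plus strand: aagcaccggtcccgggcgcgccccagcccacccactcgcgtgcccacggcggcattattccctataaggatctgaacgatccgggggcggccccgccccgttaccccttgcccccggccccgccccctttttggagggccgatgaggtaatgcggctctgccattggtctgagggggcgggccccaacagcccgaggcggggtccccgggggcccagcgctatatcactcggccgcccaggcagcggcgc
PLAU first start, chr10:73910360-73910609, plus strand: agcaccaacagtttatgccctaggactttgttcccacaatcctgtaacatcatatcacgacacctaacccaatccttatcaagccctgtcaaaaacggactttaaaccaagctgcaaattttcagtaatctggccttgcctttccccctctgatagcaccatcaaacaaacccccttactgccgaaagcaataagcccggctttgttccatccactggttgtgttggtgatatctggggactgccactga
PLAU second start, chr10:73910882-73911131, plus strand: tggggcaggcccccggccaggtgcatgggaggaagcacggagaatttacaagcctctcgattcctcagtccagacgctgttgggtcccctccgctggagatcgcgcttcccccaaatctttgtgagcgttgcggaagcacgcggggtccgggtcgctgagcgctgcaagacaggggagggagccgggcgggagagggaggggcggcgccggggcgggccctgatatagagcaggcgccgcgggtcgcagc

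The MMP7 window held 1 AP-1 match (TGAGTCA, 67 to 61 bases before the start) and 2 TCF/LEF matches, CTTTGAA at 194 to 188 bases and the reverse complement TTCAAAG at 109 to 103 bases. The PLAUR window held 1 AP-1 match, 186 to 180 bases before the start. No match lay in the other 7 windows. CpG dinucleotides numbered 3 in the MMP7 window, 4 in the first PLAU window, 7 in that of MMP14, 12 in that of TIMP1 and 13 in that of PLAUR, against a median of 11 over all promoters. The second PLAU window held 24, that of ADAM10 25, that of TIMP3 26 and that of MMP15 31. These matches are letters in a window, and no binding was measured.

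Library totals of the expected counts ran from 8857442 to 10164137, at which 3 counts are worth 0.295 to 0.339 CPM, the count scaled to a common library size. PRDX2 checked the labels in every library. It was at 148.1 and 153.8 CPM in siCon and 82.4 and 83.2 CPM in siPrdx2 libraries of HT29 cells, and at 209.1 and 246.1 CPM in siCon and 69.5 and 70.7 CPM in siPrdx2 libraries of SW480 cells. The log2 fold change was -0.87 in HT29 and -1.70 in SW480 cells, and the SW480 change minus the HT29 change was -0.84 (standard error 0.12, adjusted p = 0.0128 from edgeR's test of the interaction). That call was lost when any library other than a SW480 control library was left out (-0.86 to -0.81, edgeR adjusted p of 0.122 to 0.159). The SW480 control libraries stood apart from each other. Their log2 difference followed transcript GC content with a Spearman rho of -0.713, over the 96.8% of 14112 tested genes that had a GC value. Between the HT29 control libraries rho was -0.188, and genes are not independent replicates. Colon epithelial markers summed to 16254 to 17593 TPM (scaled by transcript length as well as library total) in HT29 and 9875 to 10927 TPM in SW480 libraries, and 9 of 9 and 8 of 9 had at least 3 counts. CEACAM5, which makes the carcinoembryonic antigen, was the one below 3 counts in SW480 cells. Fibroblast markers, which matter here because stromal cells make much TIMP, summed to 3.80 to 5.81 TPM in HT29 and 22.7 to 33.1 TPM in SW480 libraries. DCN was at 0 in all 8 libraries, while in SW480 libraries ACTA2 was at 11.7 to 22.5 TPM and COL1A1 at 7.35 to 9.33 TPM. Endothelial markers summed to 0.75 to 1.96 TPM over all libraries. Leukocyte markers summed to 4456 to 4688 TPM in HT29 libraries, nearly all from lysozyme (LYZ), and to 21.9 to 35.5 TPM in SW480 libraries. PTPRC and CD163 were at 0 in all 8 libraries, while CD68 was at 12.6 to 27.9 TPM and CD14 at 2.94 to 9.22 TPM.

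Levels of different genes were compared in TPM. In HT29 control libraries TIMP1 and MMP7 led, with 187.1 and 207.6 TPM for TIMP1 and 203.2 and 181.2 TPM for MMP7, and their ranges overlapped. ADAM10 followed at 102.5 and 100.7 TPM, and below it TIMP2, PLAUR and MMP15 lay between 65.0 and 76.2 TPM without overlap. MMP14 was at 9.42 and 8.94 TPM, PLAU at 0.94 and 1.65 TPM and MMP1 at 0.59 and 0.12 TPM. HT29 cells thus held matrilysin and TIMP1 mRNA in plenty and urokinase mRNA near the floor.

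In SW480 control libraries the order was another. TIMP2 led at 328.5 and 343.7 TPM, followed by TIMP1 at 171.1 and 209.1 TPM and PLAU at 109.4 and 108.4 TPM. MMP7 came next at 68.8 and 70.2 TPM. The ranges of ADAM10 and PLAUR overlapped, as did those of PLAUR and MMP14, with the 3 genes between 51.1 and 62.8 TPM. MMP15 at 11.4 and 14.8 TPM also overlapped with TIMP3 at 13.6 and 10.7 TPM, and MMP1 was last at 1.23 and 0.38 TPM. In siPrdx2 libraries of SW480 cells, TIMP1 (198.2 and 201.0 TPM) and TIMP2 (195.1 and 198.1 TPM) stood at nearly the same level, with the 2 ranges apart by less than 0.1 TPM.

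The first comparison asked how the cell lines differed with control siRNA. Of the 9 members that passed the filter on low counts, 8 differed between the lines with an adjusted p under 0.05 in edgeR's quasi-likelihood test, 4 higher and 4 lower in SW480 cells. Over all genes 67.5% did so, and the share among the members is read against that. TIMP3 passed the filter only through its SW480 libraries. With siPrdx2, 8 of 10 members differed, 5 higher and 3 lower in SW480 cells, against 81.9% of all genes, and MMP1 and TIMP3 passed only through SW480. Cell line, medium and library preparation cannot be told apart in both comparisons.

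The inhibitors divided. TIMP3, an inhibitor that binds the matrix itself, was listed at 0 counts in all 4 HT29 libraries and had 293 and 252 counts in siCon and 257 and 299 counts in siPrdx2 libraries of SW480 cells. Its CPM was at least 80.5-fold higher in SW480 than in HT29 cells with siCon and at least 78.6-fold higher with siPrdx2, with 3 counts per HT29 library as the floor. TIMP2 had 1245 and 1234 counts in HT29 and 4684 and 5351 counts in SW480 control libraries, a log2 difference of 2.02 (standard error 0.10, adjusted p = 4.25e-07 with edgeR). TIMP1 did not pass the threshold. It had 737 and 805 counts in HT29 and 581 and 779 in SW480 control libraries, a log2 difference of -0.18 (95% interval -0.49 to 0.13, edgeR adjusted p = 0.258), and 0.09 with siPrdx2 (-0.03 to 0.20, edgeR adjusted p = 0.143). Without the second SW480 control library the TIMP1 difference was -0.28 with an edgeR adjusted p of 0.00244, and without the first it was 0.04. With siPrdx2 the edgeR adjusted p of TIMP1 was 0.0303 without the first and 0.0470 without the second SW480 library (differences of 0.17 and 0.15).

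The urokinase gene PLAU showed the largest fitted difference among members with counts in every library. It had 10 and 18 counts in HT29 and 1010 and 1094 counts in SW480 control libraries, a log2 difference of 6.22 (standard error 0.21, edgeR adjusted p = 7.79e-08), and 5.94 with siPrdx2 (standard error 0.12). Its receptor PLAUR went the other way by a small amount, with 484 and 468 counts in HT29 and 294 and 383 counts in SW480 control libraries (log2 difference -0.49, standard error 0.14, edgeR adjusted p = 0.0112). The PLAUR adjusted p rose to 0.104 and 0.0887 when the first or second HT29 control library was left out of the edgeR fit (differences of -0.51 and -0.54), and with siPrdx2 the difference was -0.10 (95% interval -0.26 to 0.06, edgeR adjusted p = 0.231). The ratio of PLAU to PLAUR in TPM was 0.0128 to 0.0322 in HT29 and 1.54 to 2.14 in SW480 libraries. C10orf55, whose exons overlap those of PLAU on the other strand, had 0 to 1 counts in HT29 and 8 to 18 in SW480 libraries. The library kit does not mark strand, so reads from the shared bases cannot be told apart.

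Among the membrane-bound enzymes MMP14 and MMP15 were opposite. MMP14 had 150 and 140 counts in HT29 and 714 and 864 counts in SW480 control libraries, a log2 difference of 2.44 (standard error 0.14, edgeR adjusted p = 9.86e-07). MMP15 had 1316 and 1280 counts in HT29 and 198 and 280 counts in SW480 control libraries, a log2 difference of -2.44 (standard error 0.14, edgeR adjusted p = 1.46e-06). MMP7 was lower in SW480 cells by -1.60 (standard error 0.12, edgeR adjusted p = 6.61e-06) and ADAM10 by -0.91 (standard error 0.11, edgeR adjusted p = 9.78e-05). With siPrdx2 the differences were 2.37 for MMP14, -2.04 for MMP15, -1.27 for MMP7 and -0.94 for ADAM10, each past the threshold. Between MMP14 and MMP15, MMP14 thus had the higher level in SW480 cells and MMP15 in HT29 cells.

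Shares of TPM within each family describe the same contrast. TIMP1 made up 71.2 and 73.1% of the summed TIMP TPM in HT29 control libraries and 33.3 and 37.1% in SW480 control libraries. MMP7 made up 72.9 and 71.0% of the 4 MMP genes in HT29 and 51.7 and 49.2% in SW480 control libraries, while MMP14 made up 3.38 and 3.50% in HT29 and 38.9 and 40.2% in SW480. The TIMP sum over the MMP sum was 0.942 and 1.11 in HT29 and 3.85 and 3.95 in SW480 control libraries. These shares are of mRNA, and no protein was measured.

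The second comparison asked what PrxII depletion did in each line. In HT29 cells, 5 of the 8 members that passed the filter had an adjusted p under 0.05 (edgeR), 1 higher and 4 lower, against 17.6% of all genes tested. MMP1 and TIMP3 had too few counts to be tested there. In SW480 cells, 1 of 10 members passed, against 3.30% of all genes, and MMP1 entered that test only through its siPrdx2 libraries. The median log2 fold change of the members was -0.17 in HT29 and 0.00 in SW480 cells, and that of all genes tested was 0.00 in both lines. edgeR estimated a biological coefficient of variation of 0.0249 in HT29 and 0.0993 in SW480 cells, which sets how small a change could be called.

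TIMP2 fell in both lines. It was at 127.7 and 128.8 CPM in siCon and 69.0 and 73.0 CPM in siPrdx2 libraries of HT29 cells, and at 541.5 and 571.4 CPM in siCon and 303.2 and 308.2 CPM in siPrdx2 libraries of SW480 cells. Both siPrdx2 libraries lay well below both siCon libraries in each line, although the level itself was several times higher in SW480. The log2 fold change was -0.85 in HT29 (standard error 0.05, edgeR adjusted p = 2.36e-09) and -0.86 in SW480 cells (standard error 0.09, edgeR adjusted p = 0.00436). The 2 changes differed by -0.01 (95% interval -0.23 to 0.20, edgeR adjusted p = 0.993), while PRDX2 itself differed by -0.84. Leaving out the first or second siPrdx2 library of SW480 cells, which leaves 1 library in that group, gave TIMP2 -0.85 and -0.87 with edgeR adjusted p of 0.0580 and 0.0516. TIMP2 lies on chromosome 17 of GRCh37, from 76849059 to 76921469 on the minus strand.

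TIMP1 fell slightly in HT29 cells. It was at 75.6 and 84.0 CPM in siCon and 66.1 and 65.2 CPM in siPrdx2 libraries (log2 fold change -0.28, standard error 0.06, edgeR adjusted p = 0.00332). With all 8 libraries in 1 fit the adjusted p of TIMP1 was 0.276, and over the alternatives it ran from 2.71e-05 to 0.276. In SW480 cells it was at 67.2 and 83.2 CPM in siCon and 73.8 and 74.9 CPM in siPrdx2 libraries, so the groups overlapped and the log2 fold change was -0.02 (95% interval -0.31 to 0.28). TIMP3 in SW480 cells also overlapped, at 33.9 and 26.9 CPM in siCon and 26.4 and 30.2 CPM in siPrdx2 libraries (log2 fold change -0.10, 95% interval -0.46 to 0.26, edgeR adjusted p = 0.724). The TIMP3 change was -0.26 without the second SW480 control library and 0.07 without the first. Of the inhibitors tested in both lines, TIMP2 passed the threshold in both and TIMP1 in the fit of HT29 cells. TIMP3 was not tested in HT29 cells. As a share of TIMP TPM, TIMP2 was 28.8 and 26.9% in siCon and 20.0 and 21.2% in siPrdx2 libraries of HT29 cells, and 64.0 and 61.0% in siCon and 48.2 and 48.1% in siPrdx2 libraries of SW480 cells. The TIMP sum over the MMP sum was 0.907 and 0.896 in HT29 and 2.35 and 2.47 in SW480 libraries with siPrdx2.

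MMP14, the membrane-type enzyme that works with TIMP2 on pro-MMP2, rose in HT29 cells. MMP2 itself did not pass the filter on low counts there. MMP14 was at 15.4 and 14.6 CPM in siCon and 20.8 and 20.5 CPM in siPrdx2 libraries (log2 fold change 0.46, standard error 0.11, edgeR adjusted p = 0.00665). DESeq2 gave MMP14 the same change with an adjusted p of 0.0867, and the range over all alternatives was 0.000368 to 0.0930. In SW480 cells MMP14 was at 82.5 and 92.3 CPM in siCon and 115.0 and 112.5 CPM in siPrdx2 libraries. The log2 fold change of 0.38 (standard error 0.11) had an edgeR adjusted p of 0.0937. Leaving out the first or second SW480 control library gave 0.30 and 0.46. Leaving out the first or second siPrdx2 library gave 0.37 and 0.40. With a correction for GC content, by which the SW480 control libraries differed, the MMP14 change was 0.21 with an edgeR adjusted p of 0.0510. With the replicate block added to that correction its adjusted p was 0.0364. With all 8 libraries in 1 edgeR fit MMP14 had 0.38 in SW480 cells with an adjusted p of 0.0134. The changes in the 2 lines differed by -0.08 (95% interval -0.39 to 0.23, edgeR adjusted p = 0.794).

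MMP7 fell in HT29 cells, from 101.5 and 90.6 CPM to 77.6 and 76.5 CPM (log2 fold change -0.32, standard error 0.06, edgeR adjusted p = 0.000876). The study picked this gene among those that fell in the same HT29 libraries, so the fall is not independent evidence. With all 8 libraries in 1 edgeR fit its adjusted p was 0.120, within 5.63e-09 to 0.120 over the alternatives. In SW480 cells MMP7 was at 33.4 and 34.5 CPM in siCon and 35.0 and 33.3 CPM in siPrdx2 libraries, a log2 fold change of 0.01 (95% interval -0.28 to 0.30). The difference of the changes was 0.32 (95% interval 0.04 to 0.61), with an edgeR adjusted p of 0.212. It was 0.36 without the second SW480 control library. With a correction for GC content it was 0.48 (edgeR adjusted p = 0.0275), and over the alternatives it ran from 0.24 to 0.48.

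MMP15 and ADAM10 did not pass the threshold in either line. MMP15 was at 135.0 and 133.6 CPM in siCon and 117.6 and 128.2 CPM in siPrdx2 libraries of HT29 cells (log2 fold change -0.13, 95% interval -0.23 to -0.02, edgeR adjusted p = 0.0875). In SW480 cells MMP15 was at 22.9 and 29.9 CPM in siCon and 33.1 and 30.6 CPM in siPrdx2 libraries (0.27, 95% interval -0.09 to 0.63, edgeR adjusted p = 0.324). Leaving out 1 library moved both changes. Without the second siPrdx2 library of HT29 cells MMP15 was at -0.19, and without the first at -0.06. Without the second control library of SW480 cells it was at 0.47, and without the first at 0.09. The MMP15 transcript has the highest GC content of the members, 65.5%, and its log2 difference between the SW480 control libraries was -0.39. With a correction for GC content its change in SW480 cells was -0.04. ADAM10, at 37.5% GC the lowest of the members, changed by -0.03 in HT29 (95% interval -0.12 to 0.05) and by -0.07 in SW480 cells (95% interval -0.32 to 0.18). Its change in SW480 cells was -0.16 when the second control library was left out, 0.01 when the first was left out and 0.16 with the GC correction.

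MMP1 counts were few. HT29 libraries had 5 and 1 counts with siCon and 1 and 2 with siPrdx2, while SW480 libraries had 9 and 3 counts with siCon and 20 and 27 with siPrdx2. The siPrdx2 libraries of SW480 cells were above the other 6. MMP1 passed the filter on low counts in SW480 cells only through its siPrdx2 libraries, so its direction there was set by the filter, and no p is given as support. The fitted log2 fold change was 1.82 (standard error 0.50). The ratio of the summed counts, 47 against 12 and scaled by library total, was 3.73. Leaving out the first SW480 control library gave 2.85 and leaving out the second gave 1.19, so the size of the change rested on which control library was used. Without either siPrdx2 library MMP1 did not pass the filter. Between the lines with siPrdx2, where MMP1 passed only through SW480, the ratio was 15.9 (47 against 3 counts). WTAPP1, which overlaps MMP1 exons on the other strand, had 0 to 4 counts.

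PLAU did not pass the threshold in either line, and its counts in HT29 cells were too few to show a small change. It was at 1.03 and 1.88 CPM in siCon and 1.17 and 2.21 CPM in siPrdx2 libraries of HT29 cells, a log2 fold change of 0.21 with a 95% interval of -0.67 to 1.08. In SW480 cells PLAU was at 116.8 CPM in both siCon libraries and at 109.8 and 110.5 CPM in siPrdx2 libraries (-0.08, 95% interval -0.32 to 0.15, edgeR adjusted p = 0.633). PLAUR was at 49.7 and 48.8 CPM in siCon and 42.1 and 43.1 CPM in siPrdx2 libraries of HT29 cells (log2 fold change -0.21, standard error 0.06, edgeR adjusted p = 0.0337). This call was lost when any 1 of the 4 HT29 libraries was left out, with changes of -0.22 to -0.19 and edgeR adjusted p of 0.0707 to 0.151, and also with DESeq2 (adjusted p = 0.288, range over all alternatives 0.0169 to 0.453). In SW480 cells PLAUR was at 34.0 and 40.9 CPM in siCon and 40.2 and 44.7 CPM in siPrdx2 libraries, which overlapped (0.18, 95% interval -0.14 to 0.50). The change was 0.05 without the first and 0.31 without the second control library, and 0.10 without the second siPrdx2 library.

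**Figure D1:**
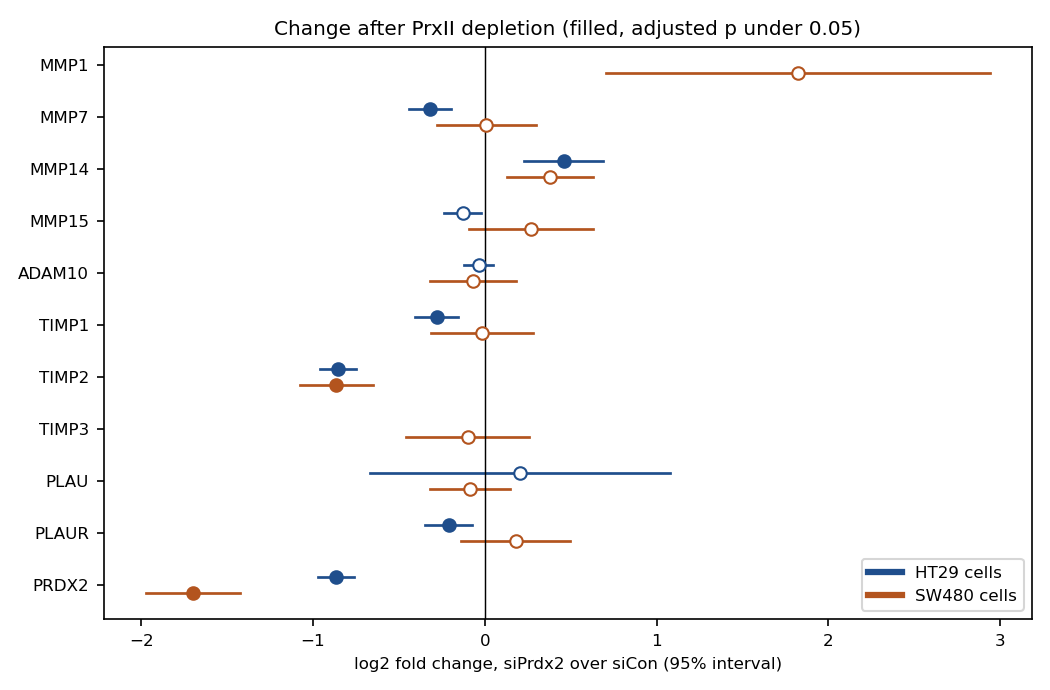
Log2 fold change of siPrdx2 over siCon (horizontal axis) with its 95% interval for the 10 genes and PRDX2 in HT29 and SW480 cells, filled where the edgeR adjusted p was under 0.05; MMP1 and TIMP3 have no HT29 value. TIMP2 lies at -0.85 and -0.86 in the 2 lines, and the intervals of SW480 cells are wider than those of HT29 cells for each gene tested in both except PLAU.

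The third comparison set the effect of PrxII depletion in one line against that in the other. None of the 10 members that passed the filter had an adjusted p under 0.05 in edgeR's test of the interaction, where 1.12% of all genes did, and TIMP3 has no HT29 counts and so no meaningful difference. The share of all genes with an unadjusted p under 0.05 was not counted. That level was reached by 4 members, which is not read as a result. They were MMP1 (2.79, with almost no HT29 counts and past the filter only through the siPrdx2 libraries of SW480 cells), MMP7 (0.32), MMP15 (0.39) and PLAUR (0.39), each given as the SW480 change minus the HT29 change. Limma on log2(TPM + 1) and DESeq2 also called no member. The differences depended on which SW480 control library was kept. Without the second, MMP7 had 0.36, MMP15 0.61, TIMP1 0.44 and PLAUR 0.54. Without the first, the same 4 genes had 0.30, 0.22, 0.12 and 0.26. The calls in HT29 for MMP7, TIMP1 and PLAUR are therefore not shown to be particular to HT29 cells.

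Other genes of pericellular proteolysis, together with AP-1 and ETS transcription factors, were taken from 7 lists with 93 genes, of which 92 were in the files. In HT29 cells 57 were tested, 8 rose and 16 fell, which is 42.1% of them against 17.6% of all genes. In SW480 cells 69 were tested, 4 rose and 1 fell, which is 7.25% against 3.30% of all genes, and the medians were -0.02 and 0.18 on the log2 scale. The AP-1 and ETS factors, 13 of the genes tested in each line, made up 6 of the 8 rises and 1 of the 16 falls in HT29 cells. They made up 1 of the 4 rises in SW480 cells. The lists were not tested as sets. Counts of list genes at an unadjusted p have no share over all genes beside them, so they are not read as results. Over all genes DESeq2 called 1017 of 9704 in HT29 and 677 of 11270 in SW480 cells. Limma on log2(TPM + 1) called 1800 of 12961 in HT29 and 214 of 14112 in SW480 cells. None of the 3 other MMP genes tested in HT29 cells passed the threshold with edgeR, DESeq2 or limma, and 1 had an unadjusted edgeR p under 0.05. None of the 8 tested in SW480 cells passed with edgeR or limma, where 3 had an unadjusted edgeR p under 0.05 and DESeq2 called 1. Of 6 other ADAM and ADAMTS genes tested in HT29 cells, ADAM8, ADAM9, ADAM15 and ADAM19 fell, by log2 fold changes of -0.36 to -0.21. DESeq2 also called 4 of the 6 and limma called 2. ADAM17, the sheddase closest to ADAM10, changed by -0.05 in HT29 and -0.11 in SW480 cells and passed in neither. In SW480 cells none of 8 passed with edgeR, DESeq2 or limma, and 5 had an unadjusted edgeR p under 0.05. There ADAM17 was at -0.19 without the second control library and at -0.04 without the first.

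Among 8 genes of the plasminogen system tested in HT29 cells, 1 rose and 4 fell, and of 10 in SW480 cells 1 rose and 1 fell. Over all genes edgeR called 17.6% in HT29 and 3.30% in SW480 cells. DESeq2 called 5 and limma 4 of the 8, and each called 2 of the 10. S100A10, a cell surface partner of plasminogen, fell in both lines. It went from 541.5 and 542.4 CPM to 361.8 and 364.3 CPM in HT29 cells (log2 fold change -0.58, edgeR adjusted p = 9.54e-11) and from 403.3 and 361.6 CPM to 94.6 and 98.4 CPM in SW480 cells (-1.99, edgeR adjusted p = 0.00031), and the change was larger in SW480 cells by -1.41 (standard error 0.10, edgeR adjusted p = 0.00014). SERPINE2, an inhibitor of urokinase and thrombin, rose from 26.4 and 25.6 CPM to 45.3 and 42.4 CPM in SW480 cells (0.75, edgeR adjusted p = 0.0217), and was at 0.71 and 0.80 with adjusted p of 0.313 and 0.196 without the first or second siPrdx2 library. SERPINB5, or maspin, fell in HT29 cells from 45.1 and 43.8 CPM to 27.7 and 30.4 CPM (-0.62, edgeR adjusted p = 1.72e-05), and had -0.70 in SW480 cells with an edgeR adjusted p of 0.0849. SERPINB5 passed the threshold in SW480 cells with the replicate block, all 8 libraries in 1 fit and the GC correction with the block, but with neither DESeq2 nor limma. Leaving out the first or second SW480 control library gave SERPINB5 -0.78 and -0.62, and leaving out the first or second siPrdx2 library gave -0.82 and -0.59. PLAT, the tissue plasminogen activator, had 1 to 2 counts in HT29 and 506 to 612 counts in SW480 libraries. Its change in SW480 cells was -0.15 (edgeR adjusted p = 0.464). It was -0.23 without the first control library and -0.07 without the second.

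Of the other inhibitors, 1 of 5 fell in HT29 cells, against 17.6% of all genes called, and limma called 1 and DESeq2 none. None of 8 passed in SW480 cells with edgeR, DESeq2 or limma, and 3 had an unadjusted edgeR p under 0.05. RECK, a membrane-anchored inhibitor of MMP14, was at 0 counts in HT29 and 90 to 132 counts in SW480 libraries, with a change of 0.31 in SW480 cells (edgeR adjusted p = 0.314). Among the membrane partners and activators, 1 rose and 4 fell of 14 in HT29 cells and 1 of 14 rose in SW480 cells, against 17.6 and 3.30% of all genes called in the 2 lines. DESeq2 called 2 and limma 1 of the 14 in HT29 cells, and in SW480 cells DESeq2 called 2 and limma 1. BSG (CD147), known as an inducer of MMP expression, was at 464.4 and 468.3 CPM in siCon and 432.8 and 436.3 CPM in siPrdx2 libraries of HT29 cells (-0.10, edgeR adjusted p = 0.0136), and had 0.18 in SW480 cells (edgeR adjusted p = 0.259). The BSG call in HT29 cells was lost with DESeq2, limma, all 8 libraries or the GC correction. It was also lost without the second control library or either siPrdx2 library (-0.11 to -0.09). In SW480 cells BSG had 0.12 and 0.25 without the first or second control library. Without the first or second siPrdx2 library of SW480 cells BSG had 0.21 and 0.16, and with the GC correction -0.07. TSPAN33, a tetraspanin that carries ADAM10 to the cell surface, rose in SW480 cells from 22.5 and 27.0 CPM to 45.6 and 43.6 CPM (0.85, edgeR adjusted p = 0.0198), and had adjusted p of 0.167 and 0.108 (0.81 and 0.88) without the first or second siPrdx2 library. Of the cathepsins, lysosomal proteases that can act outside the cell, 2 of 8 fell in HT29 cells, where DESeq2 and limma each called 1, and 1 of 8 rose in SW480 cells, where DESeq2 called 2 and limma 1. The one called by edgeR in SW480 cells, CTSA, went from 182.7 and 197.3 CPM to 324.0 and 322.8 CPM in SW480 cells (0.77, edgeR adjusted p = 0.00924) and had 0.07 in HT29 cells, a difference of 0.70 between the lines (standard error 0.10, edgeR adjusted p = 0.00892). The CTSA difference between the lines had an edgeR adjusted p of 0.107 to 0.122 when any library other than a SW480 control library was left out. Without the first or second siPrdx2 library its adjusted p in SW480 cells was 0.123 and 0.114, with 0.77 in both fits.

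Transcription factors of the AP-1 and ETS families are known to act on MMP and urokinase promoters. Of 13 tested in each line, 6 rose and 1 fell in HT29 cells, against 17.6% of all genes called. In SW480 cells 1 of the 13 rose, against 3.30% of all genes called. DESeq2 called 5 and limma 7 of the 13 in HT29 cells, and in SW480 cells DESeq2 called 2 and limma 1. JUN rose in both lines, from 172.7 and 175.6 CPM to 250.5 and 248.0 CPM in HT29 (0.52, edgeR adjusted p = 3.58e-08) and from 51.3 and 54.6 CPM to 81.6 and 79.7 CPM in SW480 cells (0.61, edgeR adjusted p = 0.0300). In SW480 cells JUN had adjusted p of 0.459 and 0.442 (0.59 and 0.63) without the first or second siPrdx2 library. FOS rose in HT29 cells from 50.4 and 53.2 CPM to 71.6 and 73.0 CPM (0.48, edgeR adjusted p = 1.72e-05). FOS was at 35.6 and 40.9 CPM in siCon and 31.9 and 32.3 CPM in siPrdx2 libraries of SW480 cells (-0.25, edgeR adjusted p = 0.271). That change was -0.35 without the first control library and -0.16 without the second. With the GC correction, with or without the block, FOS passed the threshold in SW480 cells, but with neither DESeq2 nor limma. The changes in HT29 and SW480 cells differed by -0.74 (standard error 0.13, edgeR adjusted p = 0.0330). The FOS difference had an adjusted p of 0.0501 with limma at a pseudocount of 1 TPM and 0.0705 at 0.1 TPM, and of 0.186 to 0.217 with edgeR when any library other than a SW480 control library was left out. FOSB (0.81, edgeR adjusted p = 0.00296) and FOSL1 (0.41, edgeR adjusted p = 0.00130) also rose in HT29 cells, and with all 8 libraries in 1 edgeR fit FOSL1 had an adjusted p of 0.156. FOSL1 had 0.54 with an edgeR adjusted p of 0.0573 in SW480 cells. It passed the threshold in that line with DESeq2, the replicate block, all 8 libraries in 1 fit and the GC correction with or without the block, but not with limma. There it had 0.38 and 0.71 without the first or second control library. Without the first or second siPrdx2 library FOSL1 had 0.57 and 0.51. MMP7 and PLAUR, whose promoter windows hold the AP-1 letters shown above, fell in the edgeR fit of HT29 cells. The PLAUR call was lost with DESeq2 and when any HT29 library was left out. Whether AP-1 factors acted on either gene was not tested.

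**Figure D2:**
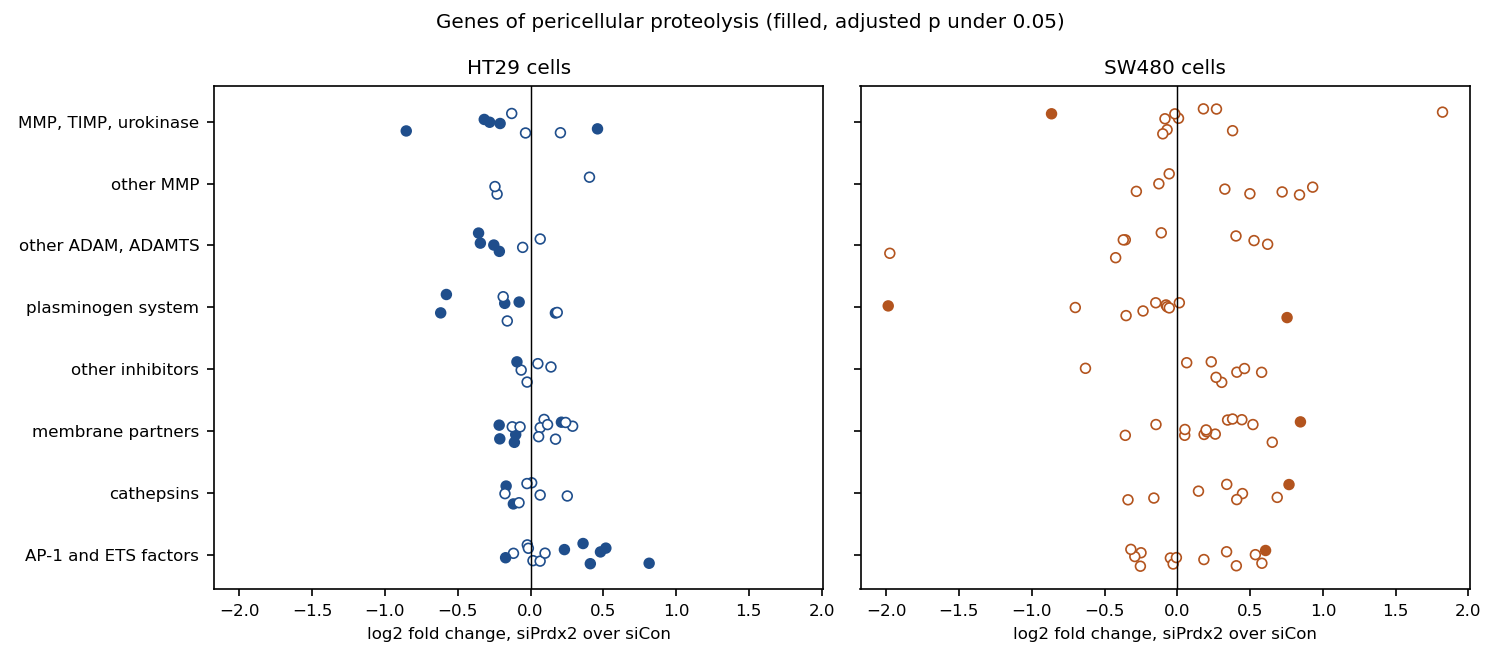
Log2 fold change of siPrdx2 over siCon (horizontal axis) of every member and list gene reported in HT29 (left) and SW480 cells (right), 1 point per gene and 1 row per list, filled where the edgeR adjusted p was under 0.05. In HT29 cells the AP-1 and ETS row holds 6 filled points above 0, and in SW480 cells S100A10 at -1.99 is the lowest filled point.

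The mean transcript length that the authors' program weighted by abundance was constant for 7 members, each with 1 transcript in the annotation. For MMP1 it was 1903 bases in all 4 siCon libraries and between 2020 and 2055 bases in the siPrdx2 libraries, with at most 27 counts behind a value. That of PLAU ran from 2378 to 2483 bases in HT29 and from 2387 to 2389 bases in SW480 libraries, and that of PLAUR from 1500 to 1515 bases over all 8 libraries.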

How the data were processed

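Messenger RNA libraries were made from total RNA with a TruSeq v2 kit, and samples were grouped by their labels. For HT29 the study's methods give alignment to hg19 with MapSplice and estimation for refGene transcripts with RSEM. For SW480 the labels name hg19, FastQC and DESeq2, and the rest is not given in the sources used here. The authors deposited, per library and symbol, an expected count, which RSEM estimated, and TPM, which they scaled by length and library total; the lengths are RSEM's means, and FPKM was not used.

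Expected counts were rounded and tested in R 4.3.3 with edgeR 4.0.16 (TMM, quasi-likelihood test, Benjamini-Hochberg adjustment over all genes tested, threshold 0.05) keeping genes that reached 10 counts in 2 or more libraries of the fit. Each line was fitted alone, the interaction in 1 fit of 8 libraries and the lines within each siRNA. CPM are edgeR's within each fit. The standard error is the absolute log2 fold change over the root of the F statistic. Alternatives were RLE normalization, no filter, DESeq2 1.42.0, limma 3.58.1 (log2 of TPM + 1, and of TPM + 0.1), a robust prior, a replicate block, all 8 libraries in 1 fit and each library left out. A GC correction (loess, span 0.5, as offset; 97.0% and 96.8% of the genes tested in HT29 and SW480 had a GC value), with and without the block, was added after seeing the data. Scripts were tested on simulated counts.

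The members and lists were chosen with earlier results of these data known. Genes named besides the members are PRDX2, PLAT, BSG, RECK, ADAM17, S100A10 and, in each line, up to 5 list genes with the largest change past the threshold and a mean of at least 5 CPM. A gene of these lists is not reported here and is in no list count. ADAM8, ADAM9, ADAM15 and ADAM19 were named after their values were seen. The labels do not say whether duplicates came from separate transfections, so p-values measure the spread between these libraries, which may be technical. Floors cover counting error only.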

Additional observations from a re-analysis of the deposited data

Results flagged for a closer look

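Among the genes named above, 4 had a change after PrxII depletion that differed between HT29 and SW480 cells by edgeR's test of the interaction, and none of them is one of the 10 genes described. Over all genes 166 of 14772 passed that test. The SW480 change minus the HT29 change was -0.84 for PRDX2, the targeted gene, -1.41 for S100A10, 0.70 for CTSA and -0.74 for FOS, all on the log2 scale. PRDX2 and S100A10 fell in both lines, and the fitted fall was larger in SW480 cells. CTSA passed the threshold in SW480 cells and had 0.07 in HT29 cells. FOS rose in HT29 cells and had -0.25 in SW480 cells. The PRDX2 difference kept its sign but had an adjusted p of 0.122 to 0.159 when any library other than a SW480 control library was left out of the edgeR fit (-0.86 to -0.81). Under the same omissions the adjusted p was 0.107 to 0.122 for CTSA and 0.186 to 0.217 for FOS, and with limma that of FOS was 0.0501 and 0.0705, while S100A10 passed under all 17 alternatives (-1.48 to -1.32).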

How the results depend on the processing

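TIMP2 was lower with siPrdx2 in both lines under all 14 alternatives for each line (-0.89 to -0.78 in HT29, -0.95 to -0.77 in SW480 cells). The count of members called in HT29 cells went from 5 to 3 with DESeq2 and to 1 with all 8 libraries fitted together, and was 4 to 5 with a library left out. In SW480 cells it went from 1 to 2 with the replicate block, to 3 with all 8 libraries, to 2 with the GC correction and to 3 with the GC correction and the block, and to 0 to 7 with a library left out (7 without the second and 3 without the first control library, 0 without either siPrdx2 library, where edgeR gave TIMP2 alone an unadjusted p under 0.05). For the difference between lines it went from 0 to 1 with the GC correction, with or without the block (MMP7), and to 0 to 4 with a library left out. Between lines it was 8 of 9 with siCon and 8 of 10 with siPrdx2, and 7 to 9 over the alternatives in both. The SW480 counts with the block, with all 8 libraries, without a control library or with the GC correction, and the counts between lines with siPrdx2, include MMP1 wherever both siPrdx2 libraries of SW480 cells were fitted. MMP1 passed the filter only through those libraries. MMP14 is in the SW480 counts with all 8 libraries and with the GC correction and the block.

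The changes whose sign turned under an alternative had passed no threshold with all libraries in the edgeR fits reported, and TIMP3, MMP15, ADAM10, ADAM17 and BSG passed in SW480 cells only with a control library left out. Between lines TIMP1 passed under 3 alternatives with siCon and 4 with siPrdx2, and PLAUR with siPrdx2 under both GC corrections. With limma the change was 0.03 for ADAM10 and 0.01 for ADAM17 in HT29 cells, 0.08 for TIMP1, 0.00 for PLAU, 0.02 for ADAM10 and 0.05 and 0.06 for FOSB in SW480 cells, 0.00 and 0.01 for TIMP2 in the interaction, and 0.05 for PLAUR between lines with siPrdx2. With the GC correction, without and with the block, it was -0.04 and -0.05 for MMP15, 0.16 for ADAM10, -0.07 for BSG and 0.10 for ADAM17 in SW480 cells, 0.18 for ADAM10 in the interaction, and -0.11 and -0.10 for TIMP1 between lines with siPrdx2. With a library left out the values ran, in HT29 cells, from -0.30 to 0.70 for PLAU and from -0.10 to 0.62 for TSPAN33. In SW480 cells they ran from -0.02 to 0.04 for MMP7, from -0.16 to 0.14 for TIMP1, from -0.26 to 0.07 for TIMP3, from -0.16 to 0.01 for ADAM10 and from -0.11 to 0.05 for FOSB. In the interaction they ran from -0.16 to 0.01 for MMP14, from -0.05 to 0.04 for TIMP2, from -0.78 to 0.22 for PLAU and from -0.11 to 0.05 for ADAM10. Between lines they ran from -0.29 to 0.04 for TIMP1 with siCon and from -0.14 to 0.05 for PLAUR with siPrdx2. The cause was not tested.

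Over all genes the count called in HT29 cells was 2279 (1006 higher, 1273 lower), 1017 with DESeq2, 185 with all 8 libraries and 1800 with limma (1252 higher, 548 lower). In SW480 cells it was 466 (172 higher, 294 lower), 1727 with the block, 2415 with all 8 libraries, 214 and 177 with limma (126 higher of 214, and 107 higher of 177), 2222 and 2941 with the GC correction without and with the block, and 87 to 7364 with a library left out. For the interaction it was 166, 300 with DESeq2, 267 with no filter, 103 and 43 with limma, 943 and 821 with the GC correction, and 6 to 5237 with a library left out.

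The labels number the replicates 1 and 2 and do not say whether same-numbered libraries were paired. The deviations of same-numbered libraries correlated at 0.104 in HT29 and 0.106 in SW480 cells. With 2 pairs in a line these values cannot settle whether the libraries were paired. With the number as a block, MMP15 in HT29 cells (-0.13, adjusted p = 0.0378) passed edgeR's threshold, and no member lost a call in either line. MMP1 in SW480 cells (1.82) is also in that count. It entered the fit only through its siPrdx2 libraries, so its p is not given. DESeq2 gave no adjusted p for PLAU, FOSB and TSPAN33 in HT29 cells, MMP1 and FOSB in SW480 cells and MMP1 in the interaction. A fit without a library leaves 1 in a group, which is taken to vary like the others. Its p then rests on the spread within the groups that keep 2 libraries, so no p from such a fit is support for a change. MMP1 everywhere and PLAU in HT29 cells rest on at most 27 counts, so small changes in them were not detectable at this depth.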
